A study of Rattus norvegicus with 4 samples.

Results

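Neuron-astrocyte co-culture was compared with the same kind of co-culture after neurons had been detached by cold jet, on 2 of the 4 arrays of the series. These 2 arrays were chosen by their labels, as the ones that held co-culture after cold jet (CC-CJ) in Cy3 and untreated co-culture (CC) in Cy5, and all 41012 non-control probes on them were considered. The astrocytes came from the brain of Wistar rat pups at postnatal day 1 and formed a monolayer. The neurons were taken from hippocampi of mouse embryos at embryonic day 18 and were grown on top of that layer, and the strain of the mice is not given in the sources used here. In cold jet, wells on ice are flushed with ice-cold buffer, and the cells that come loose are aspirated. The 2 arrays carried different samples and were taken as replicates 1 and 2. The other 2 arrays of the series set CC-CJ, again in Cy3, against Wistar astrocytes grown alone and given cold jet (AA-CJ) in Cy5, and they enter here for the estimate of spread and for side-by-side values. With no dye swap, an effect of the dye and one of the condition cannot be told apart, and the probes were designed for rat, so that mouse neuronal mRNA was read through probes of another species. How well each mouse mRNA bound its rat probe was not tested.

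Neurons and astrocytes share most housekeeping functions and differ in the machinery of polarity, excitability and secretion. A neuron builds axons and dendrites on specialised microtubules, packs transmitters into vesicles that fuse on calcium entry, and holds receptors in a postsynaptic density. Astrocytes take up transmitter and potassium, are coupled by gap junctions, and in culture lie spread and firmly attached to the dish through integrins and actin stress fibres. Cells that are weakly attached, such as neurons resting on a monolayer and microglia, can be dislodged by a stream of fluid.

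The ratio of the colours is given as M, the log2 of CC-CJ over CC and is negative for mRNAs that were lower after cold jet. Within each array M was centred by loess over all probes, so that it measures a change relative to the bulk of mRNAs and not per well. In bulk RNA, fewer cells of a type and less RNA per cell cannot be told apart. Of 21324 genes tested, limma with Benjamini-Hochberg adjustment called 477 lower after cold jet (2.24%) and 20 higher (0.0938%), at a threshold of 0.05. At an unadjusted p under 0.05 the counts were 2517 lower and 1089 higher. All 497 called genes had the same sign on both arrays. The median M was -0.76 among the lower and 0.57 among the higher genes, against -0.02 over all genes tested. Falls of at least 2-fold were called for 149 genes (0.699%), of at least 4-fold for 22 and of at least 8-fold for 3, while no rise reached 2-fold with the offset of 50. On neither array was CC-CJ well above background for 78 of the 477 lower genes.

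Of the calls, 96.0% were falls, but this share was 85.6% under a local regression on intensity and location (465 lower, 78 higher) and 78.6% on the authors' processed values (540 lower, 147 higher). The counts also depended on single arrays. Without replicate 2 there were 191 lower and 6 higher genes, without replicate 1 there were 468 and 140, and without either AA-CJ array 619 and 47. With medians in place of loess, which leaves any trend of M with brightness in the data, the median over all genes itself moved to -0.59 and 13662 genes were called lower. Probes well above background made up 62.5% and 62.6% of all probes for CC on replicates 1 and 2, and 55.8% and 50.3% for CC-CJ. The SD of M over probes was 0.198 and 0.268.

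**Figure D1:**
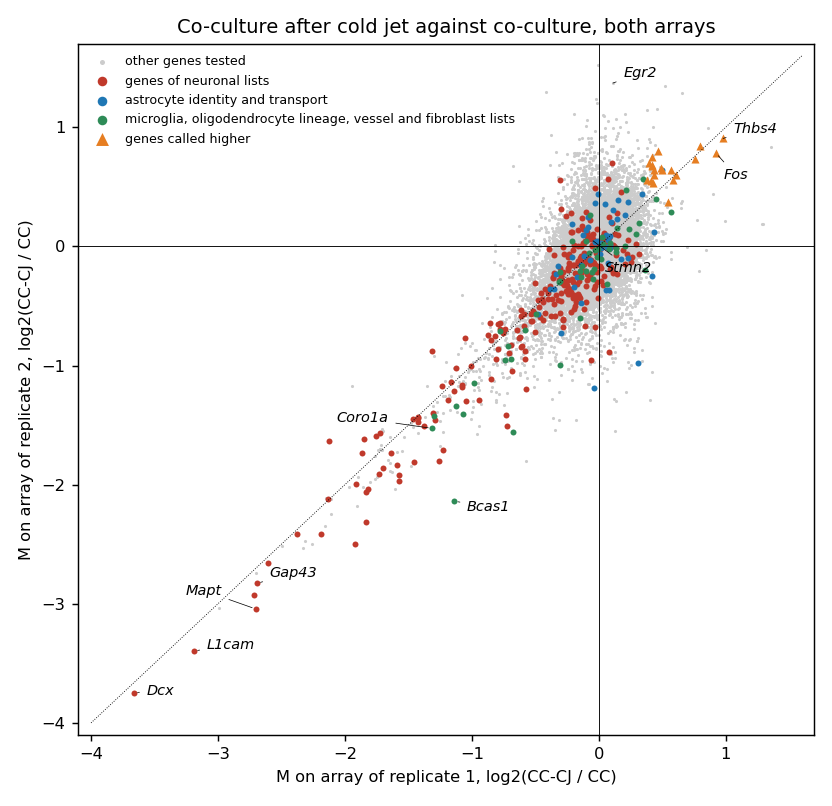
M of each gene tested on the array of replicate 1 (horizontal axis) and of replicate 2 (vertical axis), in log2 of CC-CJ over CC; red points are genes of the neuronal lists, blue points astrocyte identity and transport genes, green points lists of other cell types and orange triangles the 20 genes called higher. Dcx, L1cam, Mapt and Gap43 lie far along the diagonal on both arrays, while Egr2 is high on replicate 2 only (0.11 and 1.37) and Bcas1 is lower there (-1.14 and -2.14).

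The deepest fall was that of Dcx, which encodes doublecortin, a microtubule-associated protein of young neurons. Its probe lies on chromosome X (rn4, 34672024 to 34672079), and M was -3.66 on replicate 1 and -3.75 on replicate 2. The mean was -3.70 (SE 0.131, n = 2, adjusted p = 0.000111 by limma). L1cam, an axonal adhesion molecule of the immunoglobulin family, followed with -3.19 and -3.40. Mapt, the axonal microtubule protein tau, had -2.70 and -3.04. Between L1cam and Mapt stood TC599675, a probe without a current gene symbol on chromosome 4 (-2.99 and -3.04), which with Dcx and L1cam makes up the 3 falls of at least 8-fold and was named after its values were seen. These 4 genes fell on both arrays by far more than the arrays differed from each other.

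Next in size among genes with a symbol stood Elavl4, an RNA-binding protein of neurons, at -2.72 and -2.93, and Gap43, a growth cone protein, at -2.69 and -2.83. Stmn3, a microtubule-destabilising stathmin of neurons, had -2.60 and -2.66. Mmp24, a membrane-bound metalloprotease abundant in brain, had -2.33 and -2.53. The file places the probe for Mmp24 on chromosome 4 of rn4, while the RefSeq table has the gene on another chromosome, so that the name of this probe is uncertain. For the other 14 of the 15 largest falls with a symbol, the chromosomes were the same.

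The others of these 15 genes that are reported here had mean M between -2.40 and -2.07. They included Elavl2 (-2.38 and -2.42) and Elavl3 (-1.84 and -2.31), relatives of Elavl4, and Celf4 (-2.19 and -2.42), a regulator of neuronal mRNAs. Plppr4, a membrane protein of the postsynapse, had -2.26 and -2.50, and Slitrk3, a synaptic adhesion protein, had -2.16 and -2.35. Igsf21, another synaptic adhesion protein, had -2.11 and -2.12. Myt1l, a transcription factor that keeps neurons neuronal, had -2.13 and -2.12, 4.36-fold lower by mean M. After cold jet Myt1l was not well above background. Of the 15 genes, 13 were called lower under every one of up to 19 alternative settings that gave a value, and the other 2 in at least 17.

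**Figure D2:**
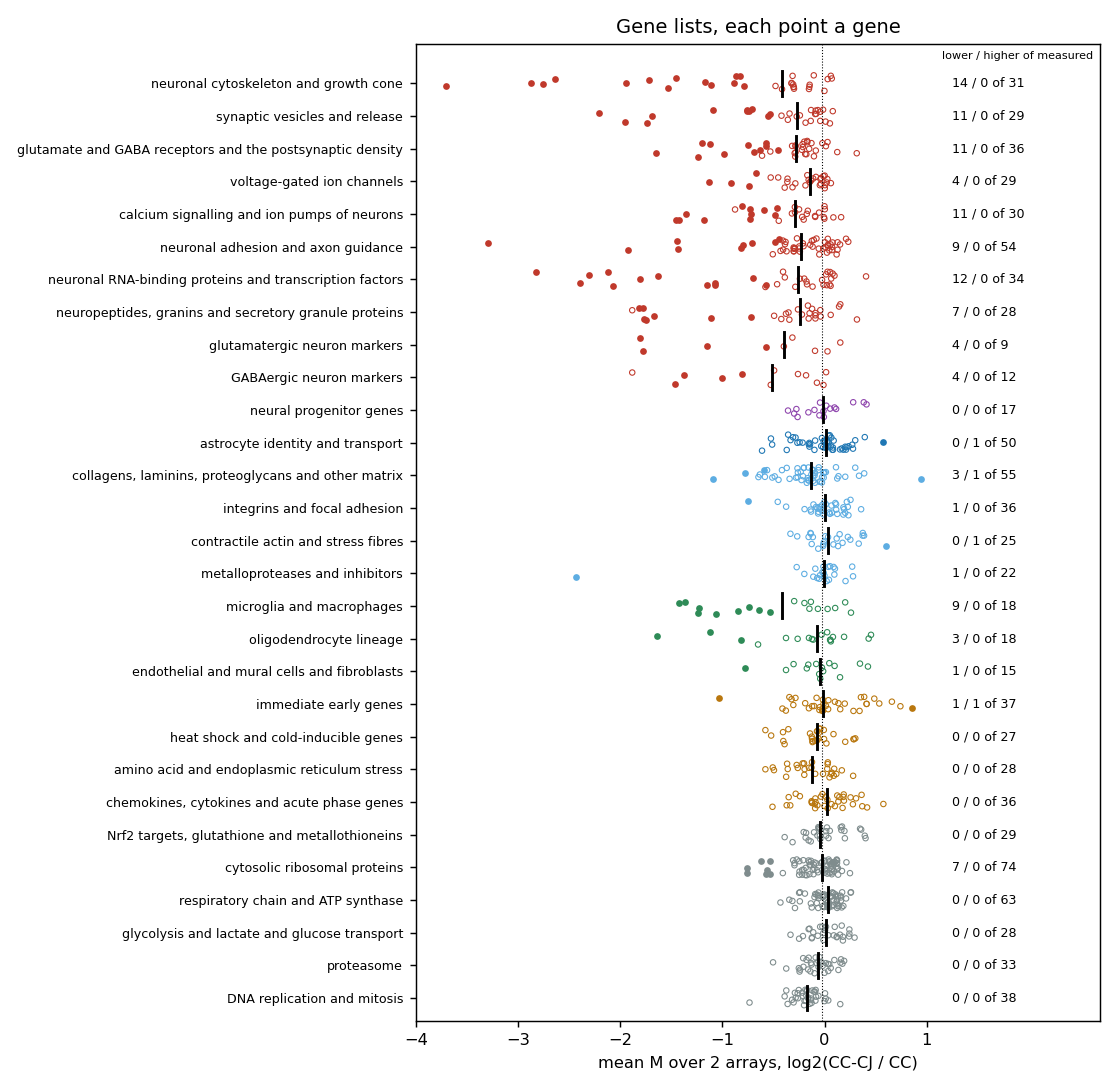
Mean M over the 2 arrays (horizontal axis, log2 of CC-CJ over CC) for each measured gene of 29 lists; filled points passed an adjusted p of 0.05, open points did not, black bars are list medians and the dotted line the median of all genes, -0.02. Filled points to the left gather in the neuronal lists and among microglia and macrophages, and the counts at the right give genes called lower and higher of those measured.

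Over 10 lists of neuronal functions, 82 of 281 measured genes were lower (29.2%, against 2.24% over all genes) and 0 were higher. The median M was -0.28, and 202 genes were below 0 on both arrays. Over all genes, the median was -0.02, with 8169 of 21324 genes below 0 on both arrays. Without replicate 2 the count of lower neuronal genes was 49, and where every array had to read a probe well above background in both colours, a filter on both channels that takes out mRNAs lost to background, it was 43. At an unadjusted p under 0.05 limma had 149 of the 281 lower and 3 higher.

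Neurites are built on a cytoskeleton of their own, and its genes held 4 of the 6 largest falls with a symbol. Of 31 measured genes of the neuronal cytoskeleton and growth cone, 14 were lower (45.2%, against 2.24% over all genes) and 0 higher. The median M was -0.42, and 27 were below 0 on both arrays. Beyond Dcx, Mapt, Gap43 and Stmn3, the motor subunit Dync1i1, an intermediate chain of dynein, fell with -1.83 and -2.06. Add2, an adducin of the spectrin skeleton, had -1.59 and -1.84, and Dpysl3, a collapsin response mediator, had -1.26 and -1.80. Tubb3, the neuronal beta-tubulin, had -1.42 and -1.48 (adjusted p = 0.000371 by limma).

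Neurofilament genes were less uniform. Nefl, the light chain, passed the test at -0.57 and -1.19, and like Tubb2b, a tubulin of young neurons (-0.73 and -1.50), it was further below 0 on replicate 2. Ina, encoding alpha-internexin, was lower at -0.82 and -0.75. Nefh, the heavy chain, was at 0.06 and 0.08, and Map1a, a microtubule-associated protein of dendrites, at 0.11 and 0.01, and neither passed the test. Map2, whose protein the paper stained as its neuronal marker, was at -0.26 and -0.37 and did not pass either (adjusted p = 0.13 by limma). Stmn2, a neuronal stathmin, was at -0.07 and 0.07, on a probe as bright in CC as in CC-CJ (log2 intensity 12.57 in both). For Stmn2, M against AA-CJ gave a log2 of CC over AA-CJ of -0.27, so that this rat probe was no brighter in co-culture than in astrocytes alone.

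At the synapse, 11 of 29 measured genes of vesicles and release were lower (37.9%, against 2.24% over all genes) and 0 higher (median M -0.27). Among them was Snap25, a SNARE protein of the presynaptic membrane, with -1.92 and -2.0. Snap25 was not well above background after cold jet on either array, and was 3.88-fold lower by mean M. Syn2, a synapsin that tethers vesicles, had -1.85 and -1.62, and Cadps, which primes dense-core vesicles, had -1.64 and -1.73. Snap91, a clathrin adaptor of vesicle recycling, had -1.31 and -0.88. Smaller falls ran from Rab3a (-0.58 and -0.94) and Dnm1 (-0.69 and -0.83) to Sv2a (-0.51 and -0.56). Not all vesicle genes moved. Vamp2, the vesicular SNARE, was at 0.06 and 0.04 and Syt1, the calcium sensor of release, at -0.17 and 0.00, and neither passed the test. Without replicate 2, 5 of the 29 genes were called lower, and 4 under the filter on both channels.

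On the receiving side, 11 of 36 measured receptor and postsynaptic genes were lower (30.6%, against 2.24% over all genes) and 0 higher. The median M was -0.28, and 30 of the 36 were below 0 on both arrays. Gabbr2, a subunit of the metabotropic GABA receptor, fell furthest, with -1.72 and -1.57. Nrgn, a calmodulin-binding protein of dendritic spines, had -1.19 and -1.29, and Grin1, the obligatory NMDA receptor subunit, had -1.24 and -1.17. Among AMPA receptor subunits, Gria1 had -0.62 and -0.76 and Gria4 -0.86 and -0.64, although the probes for Gria4 were unlike (-1.34 and -0.16). The ionotropic GABA receptor subunit Gabrb1 (-0.52 and -0.63) and the scaffold Gphn, encoding gephyrin (-0.59 and -0.67), were lower by smaller amounts. Dlg3, a scaffold of the same family as PSD-95, was at 0.18 and 0.45 (adjusted p = 0.18 by limma). Without replicate 2, 5 of the 36 genes were called lower.

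Excitability rests on ion channels and pumps. Of 29 measured voltage-gated channel genes, 4 were lower (13.8%, against 2.24% over all genes) and 0 higher (median M -0.14). Kcna1, an axonal potassium channel, fell furthest, with -1.08 and -1.18. Cacnb1, a calcium channel beta subunit, had -1.05 and -0.77, and Kcnh1, another potassium channel, -0.76 and -0.73. Kcnma1, a calcium-activated potassium channel, had -0.65 and -0.70, 1.6-fold lower by mean M, and was not above background after cold jet. Of 58 listed channel genes only these 29 had a kept probe, and the number of lower ones was 2 without replicate 2 and 1 on Agilent's own log ratios.

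Calcium signalling and ion pumps had 11 lower (36.7%, against 2.24% over all genes) and 0 higher genes of 30 (median M -0.29). Caly, a dopamine receptor-interacting vesicle protein, had -1.46 and -1.45, and Atp2b2, a plasma membrane calcium pump, -1.42 and -1.43. Those means were replicated closely, but the probes for Atp2b2 differed, with -2.39 for one and -0.46 for the other. Atp1b1, a beta subunit of the sodium pump, had -1.30 and -1.40. Camk2b, a calcium/calmodulin-dependent kinase of dendrites, had -1.14 and -1.21, again with unlike probes (-2.08 and -0.28). Camk2a, the forebrain form listed with the glutamatergic markers, was at -0.11 and -0.07 and did not pass the test. The count of 11 was 5 without replicate 2, 7 without replicate 1 and 3 on Agilent's own log ratios.

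Among adhesion and axon guidance genes, 9 of 54 were lower (16.7%, against 2.24% over all genes) and 0 higher (median M -0.23). L1cam stood far apart from the others. Sez6l2, a synaptic membrane protein, came next with -1.81 and -2.03, followed by Cntn1, a contactin of the axon surface, with -1.37 and -1.51. Nxph1, a secreted ligand of neurexins, had -1.42 and -1.44, and Nrxn2, a neurexin, had -0.85 and -0.79. The contactin relative Cntn3 was at 0.14 and 0.28 and Negr1, an adhesion molecule of neurites, at -0.03 and 0.49, and neither passed the test. Without replicate 2 the count was 5, under the filter on both channels 3, and with medians in place of loess the median M of this list was 0.06 above that of all genes.

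Regulators of neuronal RNA and transcription had 12 lower (35.3%, against 2.24% over all genes) and 0 higher genes of 34 (median M -0.26). The RNA-binding proteins were deepest, with all 3 neuronal Elavl genes and Celf4 among the 15 largest falls, and Rbfox3, which encodes the nuclear marker NeuN, at -1.45 and -1.81. Transcription factors of glutamatergic differentiation fell too. Neurod2 had -1.87 and -1.74, and Neurod6 -1.16 and -1.14, 2.22-fold lower by mean M with CC-CJ not above background. Bcl11b, a factor of deep-layer and striatal neurons, had -1.13 and -1.02, but 1 of its probes was at -2.41 and the other at 0.26. Ebf1, at 0.11 and 0.70, had the highest mean of the list and did not pass the test. Neural progenitor genes, of which 17 were measured, had 0 lower and 0 higher by limma (3 and 3 at an unadjusted p under 0.05), a median of -0.01 and no member beyond -0.36 and 0.41. At the share over all genes (2.24% lower), a list of 17 holds few calls.

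Many neuronal genes are silenced outside neurons by REST, a repressor that binds the RE1 element. The core letters of RE1, AGCACC and GGACAG set 2 bases apart, were searched on both strands of RefSeq promoters (GRCr8), from 250 bases before to 50 bases after each start. They stood in 12 of 33469 promoters (0.0359%) and in 5 of the 8315 tested genes that had a promoter (0.0601%). Of the 206 lower genes with a promoter, 2 held them, Ttc9b and Fbll1. The other 3 were Ogdhl, Lhx3 and Scamp5. The sites of Ttc9b, Fbll1 and Ogdhl, the last of which did not pass the test, are printed to set lower genes beside one that was not called, on the strand that reads the core, with its letters in capitals.
Ttc9b, chr1:92081026-92081075, minus strand: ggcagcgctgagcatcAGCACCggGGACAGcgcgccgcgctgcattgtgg
Fbll1, chr10:20764476-20764529, plus strand: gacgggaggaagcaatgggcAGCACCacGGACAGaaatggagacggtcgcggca
Ogdhl, chr16:7584561-7584614, plus strand: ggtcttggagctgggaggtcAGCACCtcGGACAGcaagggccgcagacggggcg
M was -1.71 and -1.71 for Ttc9b and -1.63 and -1.89 for Fbll1. For Ogdhl it was -0.14 and -0.16, for Lhx3 0.00 and 0.10, and for Scamp5 0.00 and -0.05. These 5 genes were named after their values were seen, and a match of letters is a description and does not show that REST binds there.

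Secreted neuronal products had 7 lower (25%, against 2.24% over all genes) and 0 higher genes of 28 (median M -0.24). Olfm1, a secreted glycoprotein of neurons, had -1.73 and -1.91. Grp, gastrin-releasing peptide, had -1.70 and -1.86, 3.43-fold lower by mean M, and was not above background after cold jet. Vgf, a granin-like growth factor-inducible protein, had -1.57 and -1.97, Chgb, a granin, -1.57 and -1.92, and Cck, cholecystokinin, -1.76 and -1.59. Sst, somatostatin, had a mean beyond all of these (-2.13 and -1.63), yet did not pass the test (adjusted p = 0.12 by limma), and the AA-CJ arrays, which share its estimate of spread, lay far apart for it (-1.31 and 1.05). Its receptor gene Sstr2 was lower at -0.94 and -1.29.

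Markers of both transmitter classes were among the lower genes. Of 9 measured glutamatergic markers 4 were lower (Neurod2, Grp, Neurod6 and Neurod1), and of 12 GABAergic markers 4 were lower. These shares were 44.4% and 33.3%, against 2.24% over all genes. The median M was -0.40 and -0.51, with 0 higher in either. Slc32a1, the vesicular GABA transporter, had -1.23 and -1.71. Gad2, a GABA-synthesising enzyme, had -1.01 and -1.01, 2.01-fold lower by mean M. Calb2, which encodes calretinin, had -0.87 and -0.75. Whether the classes differed in their fall was not tested.

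The size of M depends on the background treatment. The offset of 50 that was added to every intensity pulls ratios toward 0, most of all at dim spots, in falls and rises alike. On Agilent's own log ratios, which carry no such offset, mean M was -4.64 for Dcx and -2.88 for Gap43, both above background in both RNAs. For genes not above background after cold jet, such as Snap25, Grp, Myt1l and Gad2, the folds given equal those of mean M with the offset of 50. They are not detection limits.

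Paralogs allow neuronal and general forms of a function to be set against each other. Of 31 listed pairs, 26 had both members measured, and the neuron-enriched member had the lower M on both arrays in 18 of them. Among the 26, the neuronal member was called lower in 14 (median M -0.61), while 3 of 23 different widespread partners were (median M -0.03). Elavl1, the ubiquitous relative of Elavl2, Elavl3 and Elavl4, was at -0.07 and -0.04. Snap23, the general form of Snap25, was at 0.06 and -0.06, and Celf1, the partner of Celf4, at -0.08 and 0.20. Dync1i2, the general dynein chain beside Dync1i1, was at -0.19 and -0.08, and Add1, beside Add2, at -0.10 and 0.04. In each of these pairs the values of the neuronal member lay entirely below those of its partner.

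Smaller gaps between paralogs were seen too. Gng3, a neuronal G protein gamma subunit, had -1.23 and -1.56 against -0.02 and -0.30 for Gng12. Dnm1 had -0.69 and -0.83 against 0.17 and 0.15 for Dnm2, its widespread dynamin relative. Gnao1, the most abundant G protein alpha subunit of brain, passed the test at -0.43 and -0.47 against 0.24 and 0.14 for Gnai2. The 3 widespread members that were lower were Tubb5 (-0.49 and -0.78), Atp2b1 (-0.58 and -0.87) and Stmn1 (-1.05 and -1.30). In 8 pairs the neuronal member was not the lower one on both arrays. Among them were Eno2, the neuronal enolase, with 0.20 and 0.28, Uchl1, an abundant neuronal deubiquitinase, with 0.13 and -0.01, and the Stmn2, Vamp2 and Syt1 pairs. Under the filter on both channels, which removes several pairs, the count of 18 was 10.

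**Figure D3:**
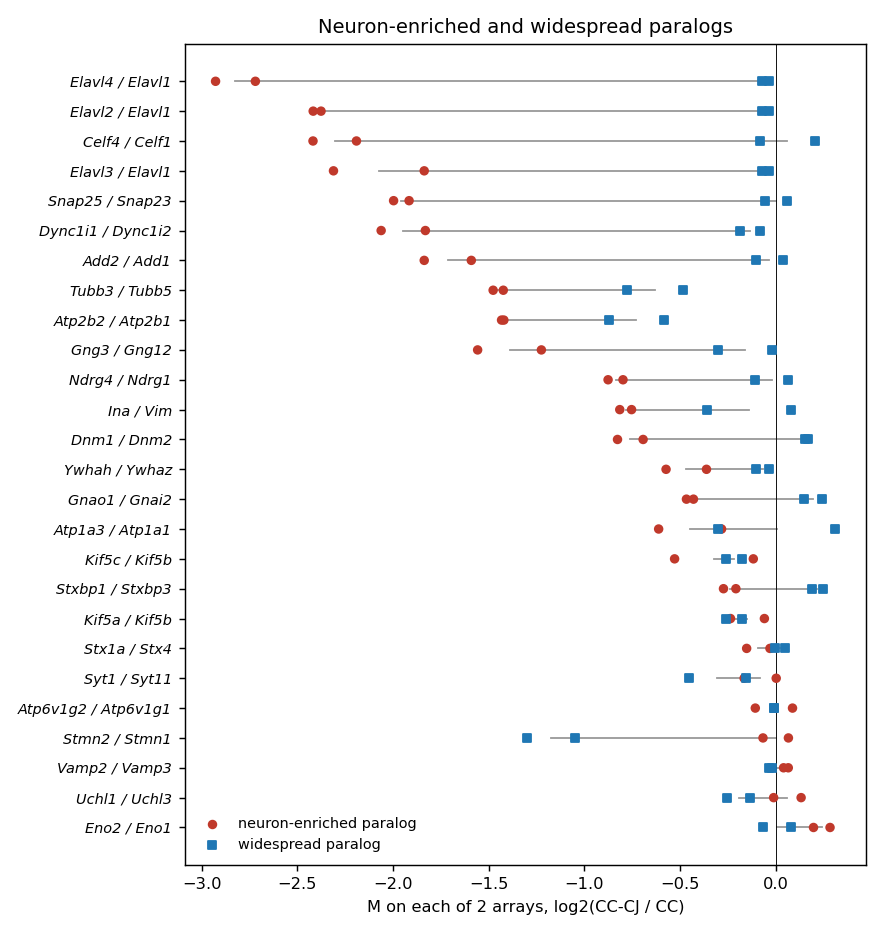
M on each of the 2 arrays (horizontal axis, log2 of CC-CJ over CC) for 26 pairs of paralogs, with the neuron-enriched member as red circles and the widespread member as blue squares. The neuronal member lies left of its partner on both arrays in 18 pairs, most widely for Elavl4 and Elavl1, and Stmn2 and Stmn1 stand the other way round.

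How much neuronal mRNA remained was read for genes at least 2-fold higher in CC than in AA-CJ and above background in CC and CC-CJ on both arrays, as CC-CJ over CC after the AA-CJ level was subtracted from both. This quantity rests on both comparisons, matched by replicate number, and is given without a test. Whether same-numbered arrays held the same CC-CJ extract is not given in the sources used here, so that the values per replicate depend on an arbitrary matching. Genes lost to background in CC-CJ (40 of the 281 neuronal genes) could not enter, so that mRNAs removed to background are not part of the median. For 49 genes of the neuronal lists the median was 15.2% (16.7% on replicate 1 and 13.6% on replicate 2). Cytoskeleton and growth cone genes had a median of 9.39% (11 genes), RNA-binding proteins and transcription factors 11.3% (6 genes), and receptors 14.9% (6 genes). Secreted products had 16.4% (7 genes), adhesion genes 21.7% (5 genes), calcium genes 21.3% (5 genes) and vesicle genes 23.7% (6 genes). The lists overlap in their ranges, and their order was not tested.

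Single genes differed widely. Means of the 49 neuronal genes ran from -9.33% to 91.7%, and a value below 0 means that CC-CJ read below AA-CJ. AA-CJ, in Cy5, was subtracted from CC-CJ, in Cy3, and CC less AA-CJ both admitted a gene and formed the divisor. Dcx was left at 5.31% and 4.52% and Celf4 at 5.17% and 5.25%, close to each other on both replicates. Gap43 was left at 12.5% and 11.2%. At the other end, Gabrb1 remained at 61.4% and 55.8% and Npy, a neuropeptide, at 66.3% and 55.9%. Pdyn, prodynorphin, remained at 94.2% and 89.1%. Of microglial genes, 7 could be read, with a median of 33.7%, and over all 280 genes that met the criteria the median was 32.2%.

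**Figure D4:**
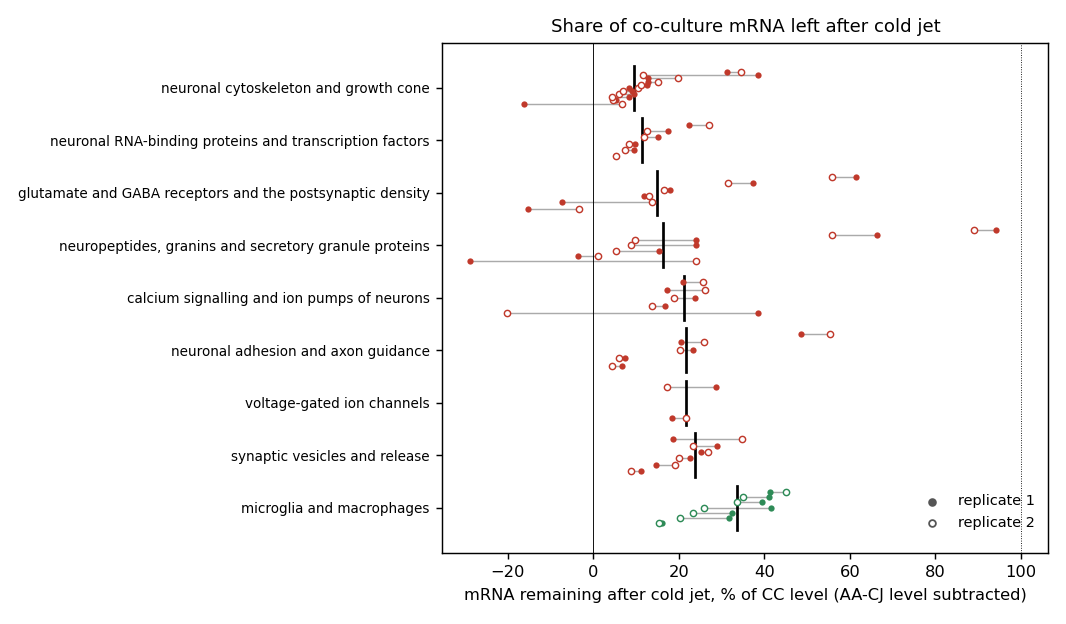
mRNA left after cold jet (horizontal axis, % of the CC level after the AA-CJ level was subtracted) for genes of each list at least 2-fold higher in CC than in AA-CJ; filled points are replicate 1, open points replicate 2, lines join a gene's replicates and black bars are list medians. Most neuronal genes lie far to the left, around a median of 15.2%, with Gabrb1, Npy and Pdyn to the right, and microglial genes have a median of 33.7%.

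Astrocytes make up the layer that stays on the dish. Of 50 measured genes of astrocyte identity and transport, 0 were lower and 1 was higher, with a median M of 0.02 that became -1.11 with medians in place of loess, against -0.59 for all genes. Over all genes 2.24% were lower and 0.0938% higher, so that a list of this size holds few calls at that share. At an unadjusted p under 0.05 limma had 8 of the 50 lower and 5 higher. Slc1a3, the main glutamate transporter of cultured astrocytes, was at 0.09 and 0.01, Aqp4, the water channel, at 0.09 and 0.09, and S100b, a calcium-binding marker, at -0.03 and 0.04. Gja1, the gap junction protein connexin 43, had -0.21 and 0.19 and Gfap, the glial filament, had 0.42 and -0.25. For Gja1 and Gfap the arrays lay on either side of 0. Glul, glutamine synthetase, with 0.31 and -0.98, and Ndrg2, with -0.03 and -1.19, were low on replicate 2 only, and 3 genes of the list were called lower when replicate 1 was left out. The 1 higher gene was Gpr37l1, an orphan receptor of astrocytes, with 0.50 and 0.64 (adjusted p = 0.026 by limma), and it was called in 13 of 19 alternative settings, but not with an offset of 0, with the replicate number as a block or without either replicate 1 or replicate 2.

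Genes of attachment were mostly not called, and neither were genes over the whole array (2.24% lower and 0.0938% higher). The shares called lower were 2.78% of integrin and focal adhesion genes, 0% of contractile genes, 4.55% of metalloprotease genes and 5.45% of matrix genes. Integrins and focal adhesion genes had 1 lower and 0 higher of 36 (median M 0.01), contractile actin and stress fibre genes 0 and 1 of 25 (median 0.03), and metalloproteases and their inhibitors 1 and 0 of 22 (median -0.00). The lower ones were Cdh13, a cadherin without a cytoplasmic tail (-0.65 and -0.86), and Mmp24, whose probe has an uncertain name as said above. The higher one was Tagln, a smooth muscle-type actin-binding protein. Matrix genes had 3 lower and 1 higher of 55, with a median of -0.13. Of the 55, 34 were below 0 on both arrays, against 8169 of 21324 genes. At an unadjusted p under 0.05 limma had 17 of the 55 lower and 4 higher, against 2517 and 1089 over all genes. For integrin, contractile and metalloprotease genes these counts were 2 and 2, 1 and 6, and 2 and 3. Dcn, the proteoglycan decorin, had -0.71 and -0.83, and Col1a2, a chain of type I collagen, had -0.48 and -0.69, while its partner chain Col1a1, at -0.14 and -0.20, did not pass the test.

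Bgn, which encodes the proteoglycan biglycan, fell with -1.21 and -0.97 although it is no neuronal gene. In the other comparison its M against AA-CJ was -1.13, and the log2 of CC over AA-CJ was -0.04. CC-CJ was in Cy3 both times, and AA-CJ had been given cold jet too. For Bgn, a dye effect and a difference of CC-CJ from both other RNAs cannot be told apart. Without replicate 2, 1 matrix gene was called lower, and without replicate 1 there were 5, and Cdh13 lost its call without replicate 2.

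Microglia, the immune cells of brain, are common companions of cultured astrocytes. Of 18 measured genes of microglia and macrophages, 9 were lower (50%, against 2.24% over all genes) and 0 higher, with a median M of -0.42. Coro1a, an actin-binding protein of leukocytes, had -1.31 and -1.53, Trem2, a lipid-sensing receptor of microglia, -1.30 and -1.42, and Lyz2, lysozyme, -1.12 and -1.34. Laptm5, a lysosomal protein of immune cells, had -1.07 and -1.41. C1qa and C1qb, which encode chains of complement C1q, had -0.98 and -1.14 and then -0.74 and -0.95. Tyrobp, the adaptor of Trem2, had -0.77 and -0.71. Aif1, the microglial protein Iba1, had -0.50 and -0.57, 1.45-fold lower by mean M, with no signal above background after cold jet.

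Some markers of these cells gave no such fall. Cd74, the invariant chain, was at 0.32 and 0.20 and Tlr2, a pattern recognition receptor, at 0.30 and 0.11, and neither passed the test. The markers Cd68 (-0.30 and -0.29) and Csf1r (-0.14 and -0.25) were below 0 on both arrays and were not called. Itgam and Cx3cr1 had no probe that passed the filter, and no probe carried the name Ptprc. The count of 9 was 3 on Agilent's own log ratios and 6 without replicate 2. Neuronal and microglial genes thus fell in the same samples, and whether a lower gene outside the lists came from one or the other was not tested.

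In the oligodendrocyte lineage, 3 of 18 genes were lower (16.7%, against 2.24% over all genes) and 0 higher (median M -0.07). Bcas1, a gene of myelinating cells, had -1.14 and -2.14, and Sox10, the lineage transcription factor, had -0.68 and -1.56. Mag, a myelin glycoprotein, had -0.69 and -0.95, 1.77-fold lower by mean M with CC-CJ not above background. Bcas1 and Sox10 were further below 0 on replicate 2 than on replicate 1. Mbp, a main myelin protein, was at -0.10 and -0.21 and did not pass the test. Without replicate 2 the count was 1, and under the filter on both channels it was 0. Lists of endothelial cells, mural cells and fibroblasts had 1 lower gene of 15 (6.67%, against 2.24% over all genes), Dcn. Of the fibroblast and mural cell markers, Col1a2, given above with the matrix genes, was lower too. Col1a1, Col3a1, Pdgfrb and Rgs5 were not called. Kdr, a VEGF receptor that was far brighter in CC than in AA-CJ (log2 2.67), was at -0.02 and -0.09 and remained at 98.7% and 93.1%.

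Cold jet is itself a handling step, and genes of rapid and stress responses were read for that reason. Of 37 immediate early genes, 1 was lower (2.7%) and 1 was higher, against 2.24% lower and 0.0938% higher over all genes. At an unadjusted p under 0.05 limma had 7 of the 37 lower and 10 higher, against 2517 and 1089 of 21324 genes. Fos, a transcription factor induced within minutes of many stimuli, had 0.92 and 0.78 (adjusted p = 0.00876 by limma). Egr1 (0.21 and 1.11) and Egr2 (0.11 and 1.37) were high on replicate 2 only and did not pass the test. Nr4a3, a nuclear receptor of the same class of rapid genes, was lower at -1.02 and -1.04, from probes at -1.76 and -0.30.

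Heat shock and cold-inducible genes (27 measured), genes of amino acid and endoplasmic reticulum stress (28), chemokines, cytokines and acute phase genes (36) and Nrf2 targets with glutathione and metallothionein genes (29) had 0 lower and 0 higher by limma (at an unadjusted p under 0.05, 6 lower and 3 higher, 7 and 0, 3 and 5, and 1 and 4). Their medians were -0.07, -0.13, 0.02 and -0.04. With 2.24% lower and 0.0938% higher over all genes, lists of these sizes hold few calls at that share. Rbm3, the cold-inducible RNA-binding protein, was at -0.07 and -0.98 and Hspa5, the chaperone of the endoplasmic reticulum, at -0.21 and -0.95. Both were low on replicate 2 only, and without replicate 1 the first list had 2 lower genes and the second 1. Hspb1, a small heat shock protein, was at 0.23 and 0.37 and Cxcl1, a chemokine, at 0.48 and 0.67, and neither passed the test.

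Housekeeping functions are shared by all of these cells. Respiratory chain and ATP synthase genes (63 measured), glycolysis with lactate and glucose transport (28), the proteasome (33) and DNA replication and mitosis (38) had 0 lower and 0 higher by limma (at an unadjusted p under 0.05, 5 lower and 3 higher, 0 and 4, 1 and 1, and 9 and 0). All genes had 2.24% lower and 0.0938% higher, a share at which lists of these sizes hold few calls. The medians of the 4 lists were 0.03, 0.01, -0.06 and -0.17, and all 4 were further below 0 with medians in place of loess (-1.29, -1.12, -1.29 and -0.66). In the last of these lists, 28 of 38 genes were below 0 on both arrays. Its lowest member was Cdc20, an activator of the anaphase-promoting complex, with -0.59 and -0.88 (adjusted p = 0.056 by limma).

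Ribosomal protein genes had 7 lower (9.46%, against 2.24% over all genes) and 0 higher of 74, with a median of -0.03. At an unadjusted p under 0.05 limma had 17 of the 74 lower and 1 higher. The 7 were Rps23, Rps16, Rps6, Rpl23, Rpl8, Rpl14 and Rpl35, with mean M from -0.76 to -0.53. The same 7 genes had an M of -1.14 to -0.69 against AA-CJ, and a log2 of CC over AA-CJ of -0.38 to -0.13. They were thus dimmer in Cy3 than in Cy5 whichever RNA was in Cy5. AA-CJ had been given cold jet too, and a dye effect cannot be told apart from a difference of CC-CJ from both other RNAs. Without replicate 1 there were 3, and without replicate 2 there were 0.

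No gene that rose reached 2-fold with the offset of 50, but on Agilent's own log ratios mean M was 1.32 for Fos, 1.03 for Thbs4 and 1.67 for Nav2, and on the authors' processed values 1.11 for Fos and 1.07 for Thbs4. All 20 were read by 1 probe each and were above background in both RNAs on both arrays, with mean M from 0.46 to 0.94. Nav2 was the dimmest of the 20, with a log2 intensity of 6.17 in CC and 6.71 in CC-CJ. Thbs4, a thrombospondin of the matrix, stood highest, with 0.98 and 0.91 (mean 0.94, SE 0.0956, adjusted p = 0.0045 by limma). Fos came next. Ctsc, a lysosomal dipeptidyl peptidase, had 0.47 and 0.80, Tagln 0.57 and 0.64, and Cyp4f4, a cytochrome P450 of fatty acid oxidation, 0.59 and 0.56. Tst, a mitochondrial sulfurtransferase, had 0.42 and 0.69, Nav2, a neuron navigator, 0.39 and 0.70, and Tpd52l1, of a family of trafficking proteins, 0.41 and 0.55. Most of these calls were not stable. Of the 20, 3 were called with the replicate number as a block, single genes were called in 8 to 18 of up to 19 alternative settings, and 4 genes in all were called higher with an offset of 0.

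The other 11 rises carry no current symbol. RGD1307559_predicted was the largest of them, with 0.80 and 0.85. S77900, which the file describes as a myosin regulatory light chain, had 0.54 and 0.37. The probe AI104443 (0.38 and 0.56) starts 430 bases from that of Tagln, and TC614444 (0.49 and 0.66) starts 18280 bases from that of Ctsc, and whether they read separate genes was not tested.

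Since CC-CJ was in Cy3 on all 4 arrays, each rise was set beside its M against AA-CJ. Thbs4 had 0.96 there and Fos 1.00, with a log2 of CC over AA-CJ of 0.02 and 0.15. Ctsc had 0.73, and 0.10 for CC over AA-CJ. For these 3 genes Cy3 was brighter than Cy5 to a like degree in both comparisons, and AA-CJ too had been given cold jet. A dye effect and a difference of CC-CJ from both other RNAs cannot be told apart. Nav2 (0.04) and Tpd52l1 (0.01) had an M near 0 against AA-CJ, and a log2 of CC over AA-CJ of -0.50 and -0.47 that did not pass the test (adjusted p = 0.143 and 0.109 by limma). Cyp4f4 (0.15 and -0.42), Gpr37l1 (0.20 and -0.37) and Tagln (0.29 and -0.31) did not pass either test. RGD1307559_predicted (2.25 and 1.43) and TC614444 (1.52 and 0.95) were higher in both co-culture RNAs than in AA-CJ. With medians in place of loess, 18 of the 20 had an M below 0, all but Fos and Nav2, and 13 remained above the median of all genes.

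**Figure D5:**
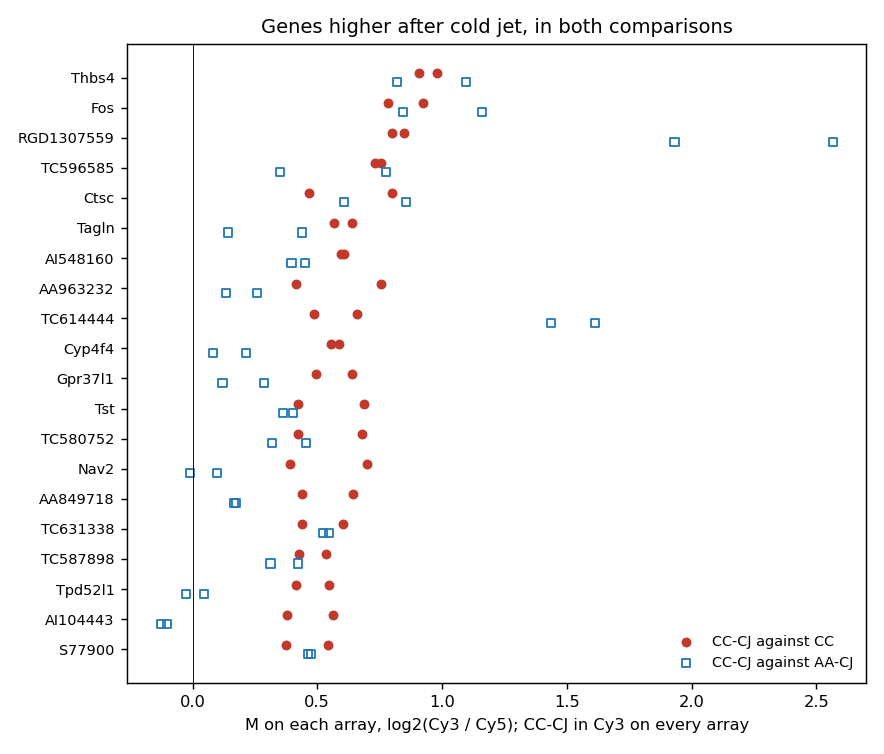
M on each array for the 20 genes called higher after cold jet (horizontal axis, log2 of Cy3 over Cy5, with CC-CJ in Cy3 throughout), with CC-CJ against CC as red circles and CC-CJ against AA-CJ as blue open squares. Thbs4 and Fos are high in both comparisons, whereas Nav2 and Tpd52l1 are near 0 against AA-CJ; with medians in place of loess 18 of the 20 red means fall below 0.

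Most of the lower genes stood in no list. Of the 477, 107 were in a list (82 in neuronal lists, 13 in those of other cell types, 7 among shared functions, 5 in the attached layer, 1 among handling responses and 0 in the astrocyte list, with 1 gene in more than 1 of these groups), and 370 were in none. Of these 370, 170 had a symbol. A few were named after their values were seen. Reln, which encodes reelin, a matrix protein secreted by Cajal-Retzius cells and interneurons, had -1.66 and -1.80. Eef1a2, the elongation factor form of neurons and muscle, had -1.72 and -1.70, and Chrm3, a muscarinic acetylcholine receptor, -1.60 and -2.04. Slc12a5, the neuronal potassium-chloride cotransporter, had -0.95 and -0.93.

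Where a lower gene had more than 1 probe, the probes mostly pointed the same way. Of 66 such genes, 64 had all probes below 0, and in 21 the probes were more than 1 apart on the log2 scale. Since these genes were called on the mean of their probes, probes below 0 were largely set by the call and are no separate support. The smallest fall that passed the test was -0.43 and the smallest rise 0.46, and what passed depended on the spread of each gene as well as on its size.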

How the data were processed

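Two-colour Agilent whole rat genome arrays were used. For each array the authors deposited spot intensities from Feature Extraction 9.5.1.1, with mean signal and local background per channel on a linear scale. Agilent's deposited log10 ratios (Cy5 over Cy3) and the authors' processed values, on a log2 scale of Cy5 over Cy3 judged by the scanner values and normalized by OLIN and OSLIN, served as alternatives with the sign turned. Their centring is not given in the sources used here.

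Intensities were corrected by normexp (offset 50) and M by loess (span 0.3) in limma 3.58.1 (R 4.3.3). Control spots were dropped, as were those marked as outliers (121 to 179 per array). A probe was kept if some RNA group had it well above background on all of its arrays (24881 of 41012). M was averaged over the probes of a gene. Of the probes, 10835 were named by accession through the RefSeq table, 8689 by symbol or unique synonym, and 21488 kept the name in the files. All 4 arrays, on 1 slide, shared 1 estimate of spread with 2 residual degrees of freedom (lmFit, eBayes, Benjamini-Hochberg). Groups came from the labels. Replicates were of different animal pools, and the number of arrays limits the precision. For genes not above background after cold jet, CC was set against the dimmest probe well above background, or the probe's own signal where higher. For the genes named, the own signal was higher, so that the fold is that of mean M.

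Named were the 15 largest falls and all rises, the 3 lowest and 3 highest members of each list, paralog pairs, cell type markers and genes that the paper names. Other members called in a list, and genes said to be so, were named after their values were seen. Members and lists were chosen with earlier results of these data known. On simulated data, 97% of 200 genes changed by a log2 of -1 among 21325 were recovered in CC-CJ versus CC, and 3.96% of calls were false. The noise was drawn from the fitted model itself, without effects of dye, brightness or single arrays. This checks the code and not the error rate of the real calls, whose median fall was smaller (-0.76). Alternatives covered the offset, background, normalization (among them locfit 1.5.9.12), source of values, filter, arrays in the fit, prior, replicate block, each array left out, and a rule of 2 SD on both arrays. A few named genes are not reported here. Probe sequences, gene ontology and a mouse genome were not used here.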

Additional observations from a re-analysis of the deposited data

How the results depend on the processing

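Counts are probes lower and higher (560 and 19 as reported), then genes (477 and 20). An offset of 0 gave 336 and 4 probes, 290 and 4 genes and a neuronal median M of -0.50 (-0.28 as reported). An offset of 16 gave 10 higher genes and a median of -0.39. Agilent's log ratios gave 302 and 4 probes, 267 and 4 genes, 54 lower neuronal genes (82 as reported) and -0.66. The authors' processed values gave 185 higher probes and 147 higher genes, and local regression on intensity and location 100 and 78. Medians in place of loess gave 15904 and 707 probes, 13662 and 650 genes, 208 neuronal genes and -0.76. The filter on both channels gave 296 and 10 probes, 276 and 11 genes, 43 neuronal genes, -0.19 and 10 paralog pairs (18 as reported). The arrays of CC-CJ versus CC alone gave 854 and 78 probes and 47 higher genes, and a prior that follows intensity 36 higher probes. The rule of 2 SD on both arrays gave 48 higher. The cause of these moves was not tested, apart from the filter, which leaves fewer genes. With 1 array left out in turn, lower probes ranged from 226 to 854 and higher from 6 to 156, lower genes from 191 to 619 and higher from 6 to 140, neuronal genes from 49 to 90, the neuronal median from -0.31 to -0.23 and pairs from 18 to 20. No background correction, a span of 0.7, robust eBayes and no filter on dim probes moved none of these counts by over 1.5 times.

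Deviations of same-numbered arrays correlated at -0.11 across genes, and whether same-numbered arrays share material was not tested. The replicate block gave 287 lower and 9 higher genes, 388 and 16 probes and 65 lower neuronal genes. A crossed pairing, chosen after seeing the data, gave 837 and 64 probes and 765 and 80 genes.

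With medians in place of loess, M changed sign for 18 rises: Thbs4 -0.24, RGD1307559_predicted -0.28, TC596585 -0.31, Ctsc -0.65, Tagln -0.76, AI548160 -0.46, AA963232 -0.15, TC614444 -0.49, Cyp4f4 -0.36, Gpr37l1 -0.23, Tst -0.55, TC580752 -0.68, AA849718 -0.65, TC631338 -0.69, TC587898 -0.61, Tpd52l1 -0.46, AI104443 -0.46 and S77900 -0.74. That setting moved the median of all genes to -0.59. Relative to it the neuronal lists stood at -0.17 and astrocyte identity at -0.52, while under the other 5 scalings the neuronal lists stood from -0.66 to -0.25 and astrocyte identity from 0.04 to 0.06.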
